A study of Homo sapiens with 4 samples.

Results

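INHBE, STC2, STC1, FGF21, GDF15, ANGPTL4 and ADM2 encode secreted hormones that liver cells are known to release under stress. These 7 genes were followed among the 59652 genes of the count table. They were taken by gene symbol, and INHBE and STC2 were selected on their measured fall at 25 mM glucose in these libraries, so the glucose contrast is described here without a test. RNA was sequenced from wild type Huh7 and PLC (PLC/PRF/5) cells, which are established human hepatocellular carcinoma (HCC) cell lines. Both lines were cultured for 48 h in glucose-free DMEM with fetal bovine serum, to which glucose was added to 5 mM (low) or 25 mM (high). Each line at each concentration gave 1 library, depleted of rRNA and built to keep the strand, so no value below has a replicate check. As a model, each line stands for the tumor cells of a single patient grown alone.

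Cells under nutrient or protein folding stress phosphorylate a translation initiation factor, which slows general protein synthesis and favors translation of the transcription factor ATF4. This integrated stress response switches on genes of amino acid supply and a set of secreted proteins that carry the state of the cell to other tissues. FGF21 and GDF15 are the best known of these hormones in the liver: the former acts through FGF receptors with the coreceptor beta-Klotho, the latter through GFRAL in the hindbrain. INHBE encodes the subunit of activin E, STC1 and STC2 encode stanniocalcins, ANGPTL4 encodes an inhibitor of lipoprotein lipase, and ADM2 encodes adrenomedullin 2, a peptide of the calcitonin family.

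The libraries held 16049686 to 30279716 counted reads, and a floor of 3 reads stood for 0.0991 to 0.187 CPM. Levels are given as FPKM, which corrects each count for the length of the gene and the depth of its library, with an exact 95% interval that covers counting error only. Of 10 hepatocyte and HCC markers, 10 exceeded 0.5 FPKM in both Huh7 libraries and 9 in both PLC libraries, with summed levels of 5090 and 5210 FPKM in Huh7 and 1020 and 1820 FPKM in PLC at 5 and 25 mM. Of 11 markers of blood, vessel, stromal and bile duct cells, 3 exceeded 0.5 FPKM in each Huh7 library and 1 in each PLC library, with summed levels of 66 and 61.9 FPKM in Huh7 and 3.84 and 11.3 FPKM in PLC. The part of any marker in the results below was not tested.

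A stress response element was searched in the promoter windows of 5 members and was found in 1 of them, that of FGF21. The DNA upstream of FGF21 and ADM2 is shown. These are the 2 of the 5 for which the bases before the start lie outside the gene as counted. The C/EBP-ATF composite element, to which ATF4 binds with a C/EBP partner, was written as TGATGNAA and sought on both strands. The search used RefSeq promoters of GRCh38.p14, windows of 300 bases with 250 before the RefSeq start site. The 100 bases before each gene are printed 5′ to 3′ on the plus strand, which is the coding strand of both, at chr19:48755424-48755523 for FGF21 and chr22:50481443-50481542 for ADM2. Capitals mark the element.
FGF21: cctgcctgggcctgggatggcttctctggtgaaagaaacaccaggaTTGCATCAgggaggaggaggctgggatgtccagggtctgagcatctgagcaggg
ADM2: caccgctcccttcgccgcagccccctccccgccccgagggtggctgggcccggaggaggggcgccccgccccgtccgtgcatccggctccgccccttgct
The element of FGF21 spans 48755470 to 48755477, 54 bases before the start of the gene, and reads TTGCATCA because it lies on the opposite strand. It also falls in a promoter window of FUT1, a fucosyltransferase gene transcribed away from FGF21, 119 bases before the RefSeq start at 48755358. The other FUT1 window, with its RefSeq start at 48752641, did not hold the element. As counted, FUT1 starts 134 bases from FGF21. Promoter windows were found for 5 of the 7 members, STC2, FGF21, GDF15, ANGPTL4 and ADM2. The RefSeq starts of STC2 (173328414), GDF15 (18386158) and ANGPTL4 (8364155) lie inside the genes as counted. The DNA before the outer starts of STC2, GDF15 and ANGPTL4, given below, was therefore not searched. The element was present in 1 of these 5 windows, in 1264 of all 34796 windows (3.63%) and in at least 1 window of 4 of 15 integrated stress response genes (ASNS, ATF3, CEBPG and CHAC1). Several of these genes have more than 1 window, so the share of genes and the share of windows cannot be compared. None of the 5 windows held the ER stress element (CCAAT, 9 bases of any kind, CCACG), found in 0.0776% of all windows, or TGACGTGG, the site of XBP1 and ATF6, found in 0.733%. The E-box CACGTG was likewise in none of the 5 and in 7.2% of all windows. A match describes these letters in this window, and a missing match says nothing of binding elsewhere.

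INHBE lies on the plus strand of chromosome 12 from 57452323 to 57459280 (hg38). It was counted with 588 reads in Huh7 at 5 mM, 100 in Huh7 at 25 mM, 11820 in PLC at 5 mM and 760 in PLC at 25 mM. These were levels of 9.03 FPKM (8.32 to 9.79), 1.09 (0.888 to 1.33), 128 (126 to 130) and 15.5 FPKM (14.5 to 16.7). The level at 25 mM was the lower one in both lines, and both PLC libraries stood above both Huh7 libraries. With 0.1 added to each FPKM, the ratio of 25 to 5 mM was 0.13 in Huh7 and 0.122 in PLC, that is 7.66-fold and 8.2-fold lower. Quotients of the ratios of the lines were taken without the added 0.1, where both ratios of INHBE are 0.121. The ratio in Huh7 divided by that in PLC was then 0.996, with a counting interval of 0.788 to 1.25. Thus the lines differed in level while their ratios were within counting error of each other. Ordered by ratio from the lowest, INHBE was number 8 of 11684 expressed protein-coding genes in Huh7 and number 16 of 11687 in PLC. Since INHBE was chosen for this fall, a low rank was given in advance and is description only.

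Several genes lie close to INHBE. INHBC, a sister activin subunit gene that ends 261 bases before it, had 8 and 14 reads in Huh7 and 48 and 6 in PLC at 5 and 25 mM. Its ratios of 25 to 5 mM were 1.13 and 0.364, with under 0.5 FPKM in every library. GLI1, a transcription factor gene of the Hedgehog pathway that starts 505 bases after INHBE on the same strand, had 47 and 9 reads in Huh7, under 0.5 FPKM in both libraries, and 1396 and 543 in PLC. Its ratio of 25 to 5 mM was 0.284 in Huh7 and 0.736 in PLC, the latter not past the threshold. AC022506.2 overlaps exons of INHBE on the opposite strand and had 170 and 30 reads in PLC, against 11820 and 760 for INHBE. Its ratio of 25 to 5 mM in PLC was 0.356, past the threshold. The strand setting of the counting is not given in the sources used here, so reads of the overlapping exons cannot be assigned with certainty.

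STC2 lies on the minus strand of chromosome 5 from 173314713 to 173329503. Stanniocalcin-2 is a glycoprotein that binds the protease PAPP-A and blocks release of insulin-like growth factors from their binding proteins. The gene had 4988, 550, 18113 and 1763 reads in Huh7 at 5 and 25 mM and PLC at 5 and 25 mM, in that order. Levels were 38.1 FPKM (37 to 39.1), 2.98 (2.74 to 3.24), 97.6 (96.2 to 99) and 17.9 FPKM (17.1 to 18.8). Here the order of libraries was not that of the lines, since Huh7 at 5 mM stood above PLC at 25 mM. STC2 was 12.4-fold lower at 25 mM in Huh7 (ratio 0.0808) and 5.42-fold lower in PLC (ratio 0.184). Without the added 0.1, the ratio in Huh7 (0.0783) was 0.427 times that in PLC (0.184), and its counting interval of 0.385 to 0.472 lay below 1. In Huh7 only 1 expressed protein-coding gene had a lower ratio, and in PLC STC2 was number 39 from the lowest. As with INHBE, these ranks follow from the choice of STC2 for its fall. No annotated gene lay within 2000 bases of STC2.

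**Figure D1:**
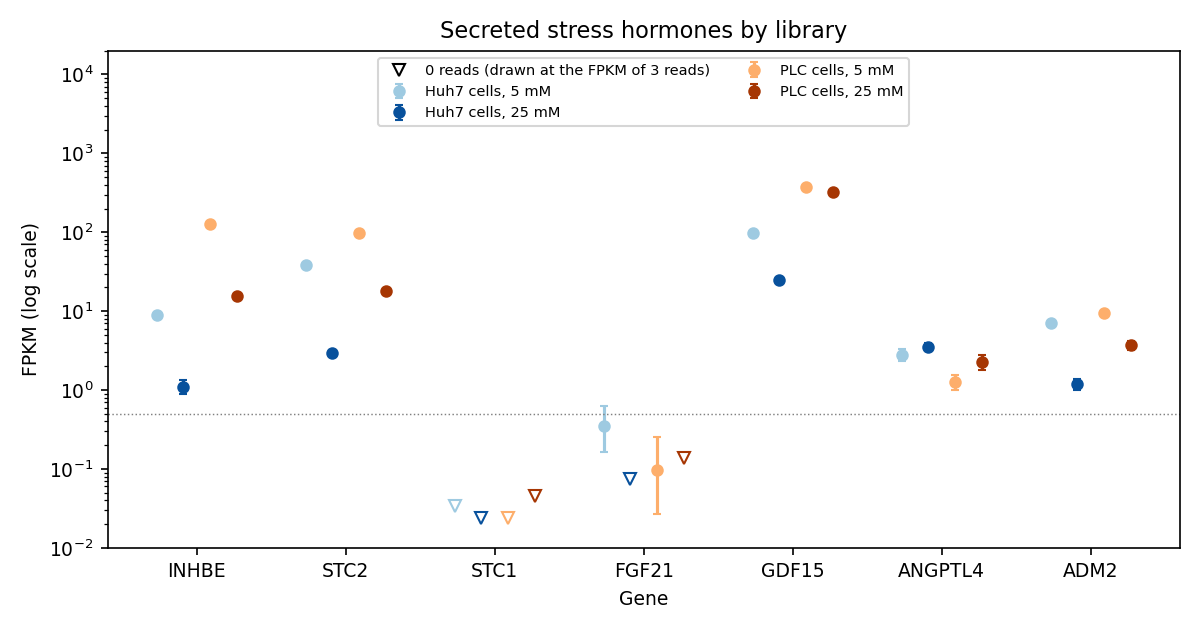
Level of the 7 hormone genes in each of the 4 libraries, in FPKM on a log axis, with 95% intervals of counting error as bars and 1 library per point. Open triangles are libraries with 0 reads, drawn at the level of 3 reads, and the dotted line is 0.5 FPKM. GDF15 is highest in every library, and STC1 and FGF21 lie below the line throughout.

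GDF15, a distant member of the TGF-beta superfamily that acts on appetite, lies on the plus strand of chromosome 19 from 18374731 to 18389176. It was the most abundant of the hormones in every library, with 99.2 FPKM (96.3 to 102) and 24.5 FPKM (23.3 to 25.8) in Huh7 at 5 and 25 mM and 380 FPKM (375 to 384) and 325 FPKM (319 to 331) in PLC. The counts behind these levels were 4424, 1538, 23986 and 10884 reads. The PLC libraries were therefore both above the Huh7 libraries, and the gap between the glucose concentrations was wide in Huh7 and narrow in PLC. The ratio of 25 to 5 mM was 0.248 in Huh7, which is 4.04-fold lower, and 0.856 in PLC, which did not pass the threshold of 0.67. Dividing the ratios gave 0.289 (0.271 to 0.307), an interval of counting error that excludes 1, but with 1 library each this difference between the lines was not tested over replicates. MIR3189, which lies within GDF15 without sharing its exons, had 25 and 14 reads in Huh7 and 90 and 40 in PLC. With depth taken into account, its ratio of 25 to 5 mM was 0.402 in Huh7, past the threshold, and 0.839 in PLC, not past it.

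ADM2 lies on the plus strand of chromosome 22 from 50481543 to 50486440. It had 645 and 154 reads in Huh7 at 5 and 25 mM and 1236 and 255 in PLC, or 7.04 FPKM (6.5 to 7.6), 1.19 (1.01 to 1.4), 9.52 (8.99 to 10.1) and 3.7 FPKM (3.26 to 4.19). Both 5 mM libraries stood above both 25 mM libraries, whatever the line. ADM2 was 5.52-fold lower at 25 mM in Huh7 (ratio 0.181) and 2.53-fold lower in PLC (ratio 0.396). Without the added 0.1 the ratios were 0.17 and 0.389, and the former was 0.436 times the latter (0.347 to 0.547). ADM2 was number 20 from the lowest ratio in Huh7 and number 241 in PLC.

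ANGPTL4, which restrains lipoprotein lipase and is also a target of PPAR receptors and of hypoxia, lies on the plus strand of chromosome 19 from 8363289 to 8374370. It was not lower at 25 mM in either line. Its 148 and 262 reads in Huh7 gave 2.8 FPKM (2.36 to 3.29) and 3.52 FPKM (3.11 to 3.97), and its 94 and 90 reads in PLC gave 1.25 FPKM (1.01 to 1.53) and 2.27 FPKM (1.82 to 2.78). Huh7 thus had the higher level at both concentrations, in contrast to INHBE, STC2, GDF15 and ADM2. The ratio was 1.25 in Huh7, inside the threshold of 1.5, and 1.75 in PLC, past it. The interval of the Huh7 ratio divided by the PLC ratio, 0.482 to 1.01, included 1. RAB11B-AS1, which lies 3 bases beyond ANGPTL4 on the opposite strand, had 80 and 116 reads in Huh7 and 16 and 29 in PLC. With depth taken into account, its ratio of 25 to 5 mM was 1.03 in Huh7 and 2.99 in PLC. The latter was past the threshold, as was that of ANGPTL4.

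FGF21 lies on the plus strand of chromosome 19 from 48755524 to 48758333 and was close to the limit of detection. It had 10 reads in Huh7 at 5 mM and 4 in PLC at 5 mM, with 0 in both 25 mM libraries. The levels at 5 mM were 0.347 FPKM (0.166 to 0.637) and 0.0979 FPKM (0.0267 to 0.251). At 25 mM the floor of 3 reads stood for 0.0739 FPKM in Huh7 and 0.138 FPKM in PLC. The 95% intervals of 0 reads reached up to 0.0908 FPKM and 0.17 FPKM there. In Huh7 the level at 5 mM was 4.69 times that of the 3-read floor at 25 mM, and with the counting error of the 10 reads included, the ratio of 25 to 5 mM lay between 0 and 0.317. In PLC no fold was resolved at this depth. FUT1, the neighbor that shares the printed promoter, was chosen after its values were seen. It had 87 and 2 reads in Huh7 and 82 and 4 in PLC at 5 and 25 mM. Its ratios of 25 to 5 mM were 0.111 and 0.218, both past the threshold but with few reads at 25 mM.

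STC1 is the paralog of STC2 and was first known as a calcium-regulating hormone of fish. It had 0 reads in all 4 libraries, and the 95% interval reached up to 0.0295 to 0.0556 FPKM, depending on the library. No reads were likewise counted for 2356 of 19161 protein-coding genes (12.3%). The paralogs therefore stood at opposite ends, with STC2 among the more abundant transcripts of PLC at 5 mM (number 256 by FPKM among protein-coding genes).

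**Figure D2:**
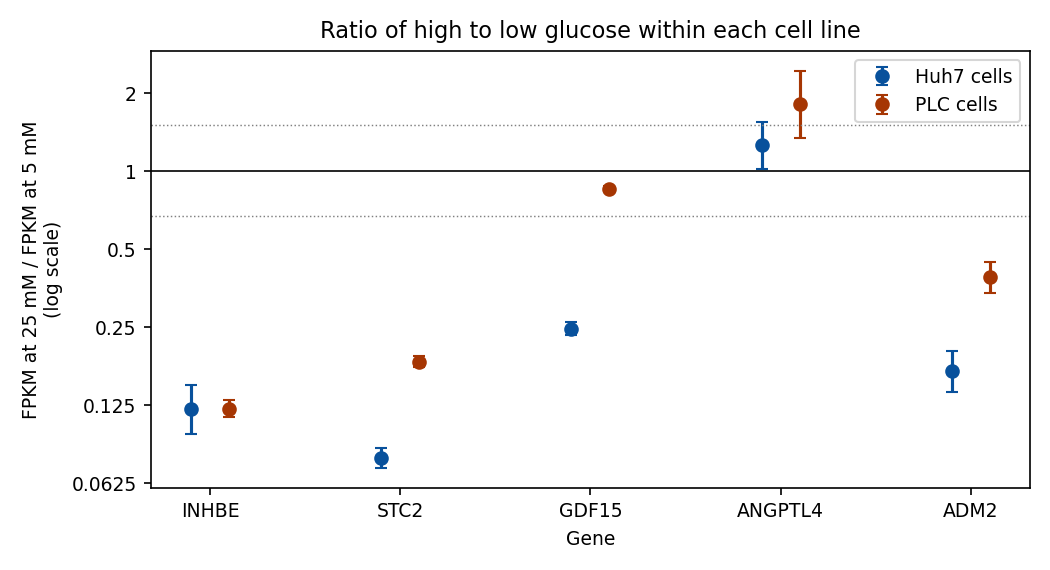
Ratio of the level at 25 mM to that at 5 mM in Huh7 and PLC for the 5 hormone genes over 0.5 FPKM, without an added constant, on a log axis with 95% intervals of counting error and dotted lines at 0.67 and 1.5. INHBE has nearly the same ratio in both lines (0.121 and 0.121), while STC2 (0.0783 and 0.184), GDF15 (0.247 and 0.856) and ADM2 (0.17 and 0.389) are lower in Huh7.

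Counted by the thresholds, a gene was lower or higher where FPKM exceeded 0.5 in at least 1 library of the line and the ratio was under 0.67 or over 1.5. In Huh7 4 of the 7 members were lower and 0 higher, beside 13.7% lower and 14.1% higher of all expressed genes and 5.71% and 5.91% of protein-coding genes. In PLC 3 were lower and 1 (ANGPTL4) higher, beside 17% lower and 26.2% higher of all expressed genes and 11.5% and 18.8% of protein-coding genes. INHBE, STC2 and ADM2 were lower in both lines, as were 3.82% of all genes and 1.97% of protein-coding genes expressed in both. Nothing is read from these counts, since the choice of members used this contrast. The same shares of all expressed genes are the background for the counts of listed genes below.

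**Figure D3:**
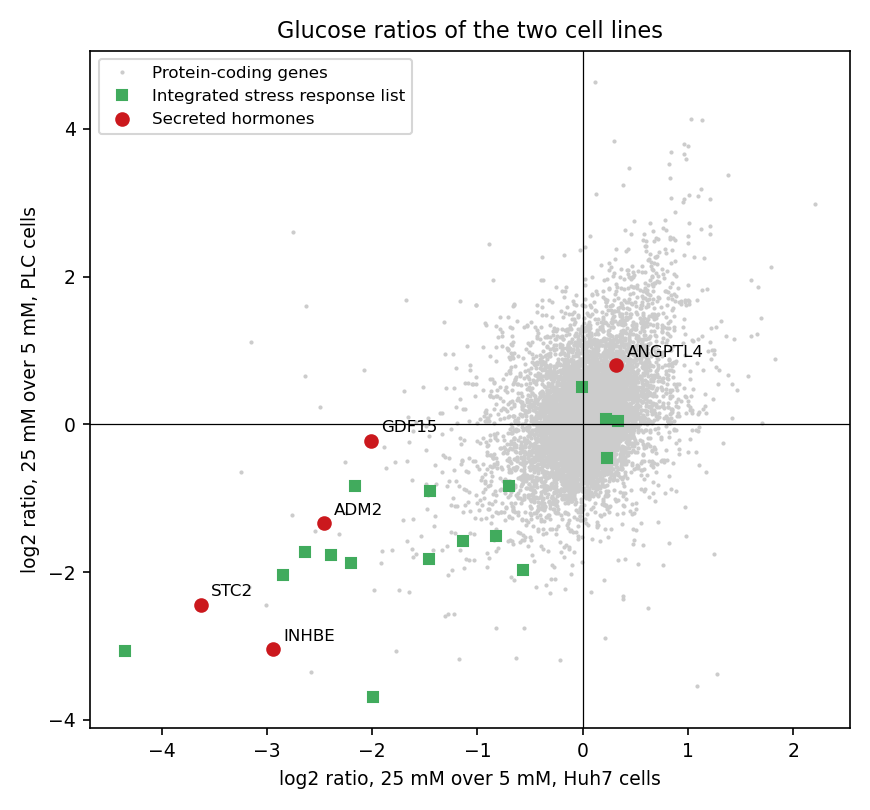
Log2 ratio of 25 to 5 mM in Huh7 (horizontal) against PLC (vertical) for protein-coding genes, expressed in both lines, with hormone genes as red circles, genes of the integrated stress response list as green squares and lines at 0. INHBE, STC2 and ADM2 lie at the lower left among stress response genes, GDF15 lies at -2.01 in Huh7 and -0.22 in PLC, and ANGPTL4 lies above zero in both lines.

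The make-up of the hormone transcripts also differed between the glucose concentrations. Their summed level was 156 FPKM in Huh7 at 5 mM and 33.3 at 25 mM, and 616 and 364 FPKM in PLC. GDF15 held 63.4% and 73.6% of this sum in Huh7 and 61.6% and 89.2% in PLC at 5 and 25 mM. Its share was larger at 25 mM in both lines although its own level was lower there. INHBE and STC2 are part of the sum and were chosen for their fall, which by itself raises the share of the other members. No response of GDF15 is therefore read from these shares. STC2 held 24.3% and 8.96% in Huh7 and 15.8% and 4.92% in PLC. Of the 2 genes chosen for their fall, INHBE exceeded STC2 only in PLC at 5 mM: the level of INHBE was 0.237 and 0.366 times that of STC2 in Huh7 and 1.31 and 0.867 times in PLC. In bulk RNA, fewer cells with a transcript and less of it per cell cannot be told apart.

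The difference between the lines was not used to choose the members and was tested in edgeR (quasi-likelihood F test), with glucose concentration as a block. Each line has 2 libraries, 1 at each concentration, which are not replicate cultures, and the fit has 1 residual degree of freedom. INHBE was 14.3-fold higher in PLC (log2 difference 3.84, SE 0.25, edgeR adjusted p = 6.31e-08) and GDF15 7.14-fold higher (2.84, SE 0.34, edgeR adjusted p = 1.71e-05). STC2 was 3.91-fold higher (1.97, SE 0.27, edgeR adjusted p = 6.47e-05) and ADM2 2.02-fold higher (1.02, SE 0.32, edgeR adjusted p = 0.0198). ANGPTL4 was 1.85-fold higher in Huh7 (log2 difference -0.89, SE 0.36), which did not pass the test (edgeR adjusted p = 0.0603). So 4 members passed, all higher in PLC, beside 21.1% of the 23217 genes tested that were higher in PLC and 21.8% that were higher in Huh7. FGF21 and STC1 had too few reads to enter the test.

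Not all of these differences held when a library was left out, in fits that had to drop the block and so compare lines at unequal glucose. GDF15 passed in each of these fits. INHBE did not pass without PLC at 5 mM (log2 difference 1.56). STC2 did not pass without Huh7 at 25 mM (0.63) or without PLC at 5 mM (-0.27). ADM2 did not pass without Huh7 at 25 mM (-0.07), without PLC at 5 mM (-0.21) or without PLC at 25 mM (1.30). ANGPTL4 passed as higher in Huh7 without PLC at 25 mM (-1.24). At matched glucose, the level of STC2 in PLC was 2.56 times that in Huh7 at 5 mM (2.48 to 2.65) and 6.01 times at 25 mM (5.46 to 6.62), and that of ADM2 was 1.35 times (1.23 to 1.49) and 3.1 times (2.53 to 3.82). For INHBE the values were 14.2 (13.1 to 15.4) and 14.2 (11.6 to 17.7), and for GDF15 3.83 (3.71 to 3.95) and 13.3 (12.6 to 14).

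**Figure D4:**
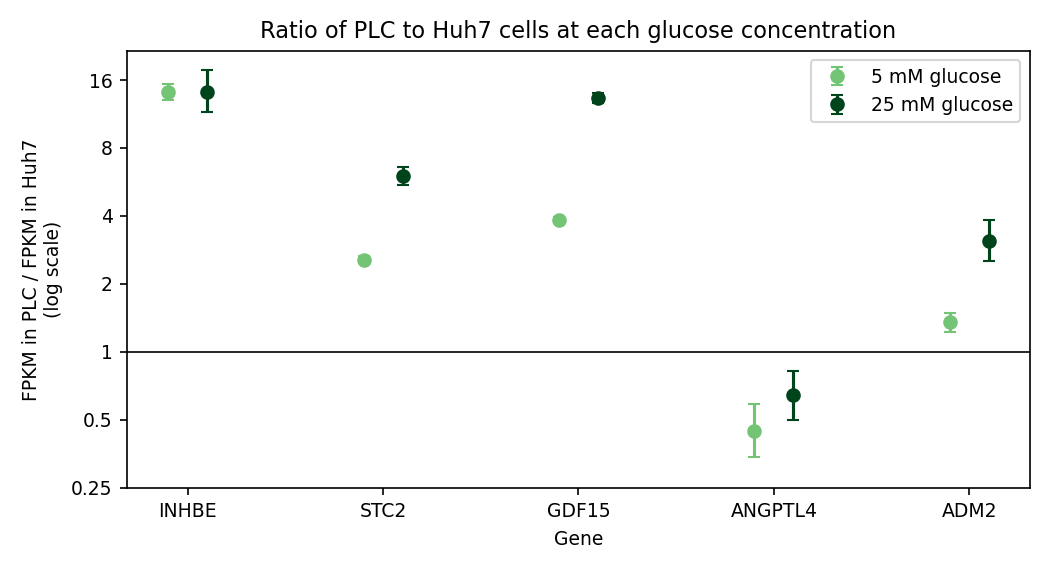
Level in PLC divided by that in Huh7 at 5 mM and at 25 mM for the 5 hormone genes over 0.5 FPKM, on a log axis with 95% intervals of counting error. INHBE lies at 14.2 at both concentrations, STC2, GDF15 and ADM2 lie higher at 25 mM than at 5 mM, and ANGPTL4 lies below 1 at both (0.448 and 0.644).

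The partners of the activin subunit were measured next. Of 8 activin subunits and binding proteins, 0 were lower and 1 higher among 5 expressed in Huh7, and 2 were lower and 1 higher among 4 expressed in PLC (3 and 1 with TMM scaling), with median log2 ratios of -0.16 and -0.50. FST, which encodes follistatin, the secreted protein that binds and neutralizes activins, was higher at 25 mM in both lines, from 14.4 to 25.9 FPKM in Huh7 (ratio 1.79) and from 6.3 to 28.9 FPKM in PLC (ratio 4.53). The direction of FST was thus opposite to that of INHBE in both lines. FSTL3, a follistatin-related gene of the same list, did not share the direction of FST. It went from 3.59 to 2.71 FPKM in Huh7 (ratio 0.76, not past the threshold) and from 36.7 to 18.9 FPKM in PLC (ratio 0.517). INHBB, another activin subunit gene, was also lower in PLC (ratio 0.476) and was under 0.5 FPKM in Huh7. Among 11 activin receptors and SMADs, 0 of 11 expressed passed a threshold in Huh7, and 2 were lower and 2 higher of 10 in PLC (3 and 1 with TMM scaling). The median log2 ratio of these receptors and SMADs was 0.03 in Huh7 and -0.07 in PLC, against 0.04 and 0.07 for all expressed protein-coding genes. ACVR1C, which encodes the receptor ALK7, had 1.76 and 1.85 FPKM in Huh7 at 5 and 25 mM and 0.0292 and 0.0413 FPKM in PLC.

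Receptors of the other hormones were present to very different degrees. KLB, the beta-Klotho coreceptor of FGF21 and FGF19, was at 34.3 and 32.7 FPKM in Huh7 and 20.2 and 14.3 FPKM in PLC, although FGF21 itself was barely detected. The FGF receptors themselves differed in level. FGFR4 was at 63.3 and 59.6 FPKM in Huh7 and 50.5 and 68.6 FPKM in PLC. FGFR1 was at only 1.89 and 2.05 FPKM in Huh7 and 9.57 and 9.25 FPKM in PLC. FGFR3 was at 63.4 and 53.7 FPKM in Huh7 and 12.5 and 9.61 FPKM in PLC, and FGFR2 had 0 reads in all 4 libraries. None of the FGF21 relatives and receptors passed a threshold in either line (5 and 4 expressed, median log2 ratios -0.09 and -0.21), but with TMM scaling KLB was lower in PLC (ratio 0.633 in place of 0.709). GFRAL, the receptor of GDF15, had 0 reads in all 4 libraries, whereas FURIN, a protease that cleaves proprotein precursors, was at 129 and 149 FPKM in Huh7 and 44.2 and 48.3 FPKM in PLC. In the list of the GDF15 receptor and convertases, 0 of 3 expressed genes passed in Huh7 and 1 of 4, higher, in PLC (median log2 ratios -0.05 and 0.24). CALCRL, the receptor through which adrenomedullins act together with RAMP proteins, was at 2.53 and 1.61 FPKM in Huh7 and 0.158 and 0.0426 FPKM in PLC. RAMP1 and RAMP2 had 0 reads in both PLC libraries, and RAMP3 had 0 in all 4. Of 7 adrenomedullin family and receptor genes, 1 was lower and 1 higher in each line, of 4 expressed in Huh7 (median log2 ratio 0.16) and 3 in PLC (0.17).

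The relatives of the hormones did not follow one direction. ADM, the adrenomedullin gene, went from 4.04 to 5.8 FPKM in Huh7 (ratio 1.42) and from 17.9 to 8.01 FPKM in PLC (ratio 0.451), so that in Huh7 it did not share the fall of ADM2. Of 12 angiopoietin-like genes and lipases, 7 were expressed in each line, with 1 lower and 1 higher in Huh7 and 1 lower and 2 higher in PLC. Of expressed protein-coding genes, 5.71% were lower and 5.91% higher in Huh7, and 11.5% and 18.8% in PLC. The median log2 ratios of the list, 0.01 and 0.04, lay near the 0.04 and 0.07 of those genes. With so few genes, nothing particular to this family is read from the counts. ANGPTL1 was higher in both lines, with ratios of 1.6 and 5.6. LPL, the enzyme that ANGPTL4 inhibits, had 2 reads in each Huh7 library and 0 in both PLC libraries, while LIPC, hepatic lipase, was at 4.38 and 6.55 FPKM in Huh7 and 13.7 and 22.1 FPKM in PLC (ratio 1.61 in PLC, or 1.44 with TMM scaling). PAPPA, the protease that stanniocalcins block, was at 0.493 and 0.341 FPKM in Huh7 and 0.105 and 0.108 FPKM in PLC. Of the 7 stanniocalcin partners, 0 of 4 expressed passed in Huh7 and 2 of 2, both lower, in PLC, among them IGF1R with a ratio of 0.471, and the median log2 ratios were 0.18 and -1.22.

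Most genes of the integrated stress response were lower at 25 mM in both lines, as INHBE, STC2 and ADM2 were. Of 17 genes listed, all expressed in both lines, 12 were lower in Huh7 and 13 in PLC, with 12 lower in both and 0 higher. Of expressed protein-coding genes, 5.71% were lower in Huh7 and 11.5% in PLC, and 1.97% of those expressed in both lines were lower in both. The list was drawn up with earlier results of these libraries known and is not independent evidence of this direction. Its median log2 ratio was -1.45 in Huh7 and -1.58 in PLC. ATF4 had ratios of 0.618 and 0.56, DDIT3, the pro-apoptotic factor CHOP, 0.365 and 0.534, and ATF3, a repressor induced by stress, 0.252 and 0.0777. CHAC1, which degrades glutathione, had ratios of 0.049 and 0.12, TRIB3, a pseudokinase, 0.19 and 0.293, and ASNS, asparagine synthetase, 0.161 and 0.302. The 4 genes of the list that encode the kinases of the response, EIF2AK1 to EIF2AK4, did not pass a threshold, with ratios of 0.99 to 1.26 in Huh7 and 0.728 to 1.41 in PLC, except that EIF2AK3 was lower in PLC with TMM scaling (0.651).

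Other programs that can induce these hormones were counted in the same way. Of expressed protein-coding genes, 5.71% were lower and 5.91% higher in Huh7, and 11.5% and 18.8% in PLC. The difference of a list from these shares was not tested. Of 11 genes of ER folding, 2 were lower and 0 higher in Huh7 and 2 lower and 3 higher in PLC. The 2 lower in both lines were ERN1, an ER stress sensor (0.511 and 0.594), and HERPUD1, a component of ER-associated degradation (0.502 and 0.478), whereas HSPA5, the main ER chaperone, had ratios of 1.13 and 1.06, the latter 0.943 with TMM scaling. That scaling also made the counts in PLC 4 lower and 2 higher, with XBP1 and ATF6, transcription factors of the ER stress response, past the threshold and the chaperone PDIA4 no longer past it. Of 9 p53 targets, 1 was lower in Huh7 and 2 in PLC, with the apoptosis gene BBC3 lower in both (0.534 and 0.66). Of 9 expressed PPAR and fasting targets in each line, to which ANGPTL4 is related, 0 were lower or higher in Huh7 and 1 was lower and 3 higher in PLC. Of 9 hypoxia targets, 1 was lower and 1 higher in Huh7 and 2 lower and 1 higher in PLC, with VEGFA, which encodes an angiogenic growth factor, lower in both (0.54 and 0.45). Of the carbohydrate response targets, 1 was lower and 1 higher of 6 expressed in Huh7, and 0 were lower and 5 higher of 8 in PLC. Of the other liver secreted hormones, 2 were lower and 1 higher of 13 expressed in Huh7 and 4 lower and 2 higher of 11 in PLC. The median log2 ratios in Huh7 and PLC were 0.17 and -0.27 for ER folding, -0.09 and -0.24 for p53 targets and -0.06 and 0.15 for PPAR and fasting targets. They were 0.39 and -0.28 for hypoxia targets, -0.20 and 0.89 for carbohydrate response targets and 0.01 and -0.25 for the other secreted hormones.

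The genes with the profile most like that of each member were found by Euclidean distance between log2(FPKM + 0.1) values centered on their own mean, over the 4 libraries and among 12706 protein-coding genes. A distance of 0 means the same profile, and the 4 points share their libraries and depth. The nearest to INHBE were BHLHE41, a circadian repressor (1.29), HMOX1, heme oxygenase (1.39), and HRK, an apoptosis gene (1.58). The gap to its nearest gene was wider than for the other 4 expressed members. This distance is not scaled to the spread of a profile, and INHBE was chosen for its fall, so nothing is read from the width of the gap. The nearest to STC2 were DDIT4 (0.66), CHAC1 (0.89) and CSTA (1.09), and the nearest to ADM2 were ASNS (0.32), SESN2 (0.43) and NUPR1 (0.62). EDN1, which encodes endothelin-1, was the nearest to GDF15 (0.17), ahead of PARP3 (0.38) and TMIE (0.44). For ANGPTL4 they were SNRNP40 (0.02), CRB2 (0.05) and TMEM164 (0.06). Among the hormones themselves, STC2 and ADM2 were the most alike (1.48), then INHBE and STC2 (1.92), and INHBE and ANGPTL4 were the least alike (5.83).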

How the data were processed

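The deposited unit is the count, the number of reads that the authors assigned to each gene, without normalization. The submitters' processing notes name HISAT2, featureCounts and hg38. Tool versions, annotation release and strand setting are not given in the sources used here. Of 59657 lines, 5 that form a broken entry for ANK2 were left out. Gene class was taken from GENCODE 44 by symbol (38133 genes matched).

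FPKM was computed from the count, the deposited gene length and the library total. Ratios of 25 to 5 mM had 0.1 added to both values. A gene counted as changed with FPKM over 0.5 in either library and a ratio above 1.5 or below 0.67. Intervals are exact (Clopper-Pearson, 95%), without the 0.1, and cover counting error only. The line difference was tested with edgeR 4.0.16 in R 4.3.3 (TMM, filterByExpr, Benjamini-Hochberg over all genes). Other steps used Python 3.11.15 with SciPy 1.17.1. Code was tested on simulated data.

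Members and lists were chosen with earlier results of these data known. The genes named were the 7 members, the listed genes with a mean FPKM over 1 that moved one way in both lines past the thresholds, the receptors or partners of each hormone, ATF4, DDIT3 and HSPA5, and the 3 nearest profiles per member among genes with at least 100 reads. A listed gene that met this rule is not reported here. Neighbors within 2000 bases, the FGFR genes, FSTL3, INHBB, ADM, FURIN, LIPC, the EIF2AK genes, IGF1R and genes whose call changed with the scaling were added after the values were seen. Alternatives were 0 or 1 added, TMM or DESeq2 (1.42.0) scaling, FPKM over 0.5 in both libraries or over 1, ratios over 2 or under 0.5, and for the line test RLE factors, no glucose block, no filter, a minimum of 10 counts per library, DESeq2 and leaving out each library.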

Additional observations from a re-analysis of the deposited data

Results flagged for a closer look

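GPD1, a glycerol-3-phosphate dehydrogenase of the carbohydrate response list, passed the thresholds in opposite directions, with a ratio of 25 to 5 mM glucose of 0.588 in Huh7 and 2.09 in PLC. The difference was not tested, since each value rests on 1 library per condition.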

How the results depend on the processing

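TMM and DESeq2 scaling shifted every log2 ratio by -0.16 and -0.13 in PLC cells and by -0.03 and -0.02 in Huh7 cells. In PLC cells the ratios became 0.109 and 0.111 for INHBE, 0.165 and 0.168 for STC2, and 0.764 and 0.781 for GDF15. In Huh7, PPP1R15A (0.662) and CDKN1A (0.664) became lower with TMM scaling. With 1 added to FPKM the ratios were 0.208 for INHBE, 0.102 for STC2 and 0.273 for ADM2 in Huh7 cells and 0.447 for ADM2 in PLC cells, as an added constant pulls low levels towards 1. The count of members higher in PLC cells, 1, became 0 with 1 added and with ratios over 2. Members past the line test, 4, became 2 without the glucose block and ranged from 1 to 4 with a library left out. STC2 ranged from -0.27 to 4.33 (log2), the lowest without PLC cells at 5 mM, and ADM2 from -0.21 to 2.52, with -0.07 without Huh7 cells at 25 mM and -0.21 without PLC cells at 5 mM. Without the block STC2 (1.53) and ADM2 (0.71) did not pass, nor did ADM2 with DESeq2 (1.03). Genes past the line test, 9969, became 6340 with at least 10 counts in every library and 5249 to 11598 with a library left out. The cause of these changes was not tested. FGF21 and STC1 are limited by depth.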
